A study of Mus musculus with 12 samples.

Results

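The transcriptome of wild type bone marrow cells labelled HSC was taken from the 6 columns of a count table whose titles begin with WT, out of 12 columns in all. These columns carry 3 sample numbers (WT178, WT180 and WT207) of 6 in the series, with 2 libraries each. Summing both libraries of each number left 3 samples. The cells came from Ythdc1+/+ mice of the C57B6 strain that carried Mx1-Cre, a recombinase switched on by interferon in blood cells and other tissues. According to the study's methods these control mice received repeated injections of pIpC, a double-stranded RNA mimic that induces interferon, as did the knockout mice, so the wild type state is that of treated young adults. HSCs were sorted by flow cytometry after enrichment for CD117, and polyadenylated RNA was amplified from low input before sequencing. The study defines long-term HSCs as CD150+ CD48- Flk2- cells among lineage-negative Sca-1+ c-Kit+ cells, while the labels of these samples say only HSC. Nothing says whether a sample number is a mouse, or how many cells it holds, so the spread between the samples may be technical.

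HSCs sit at the top of blood formation, divide rarely in the undisturbed marrow, and give rise to multipotent and then lineage-restricted progenitors. Their identity is held by a small set of transcription factors that act together, among them the heptad of Lmo2, Lyl1, Tal1, Gata2, Runx1, Erg and Fli1. Interferon and other inflammatory signals are known to alter the surface phenotype and cycling of these cells, and Sca-1, one of their sorting markers, is itself encoded by an interferon-inducible gene.

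Read pairs in genes numbered 42098649 in WT178, 48095239 in WT180 and 44317995 in WT207, and single libraries held 20809936 to 24563170. Levels are given as TPM, the counts of a gene divided by its exon length and scaled to a fixed total per sample, in the order WT178, WT180 and WT207. Of 55335 genes in the table, 13756 were at 1 TPM or more in every sample, and 10983 of these were protein coding. A further 2523 genes reached 1 TPM in some samples but not all. At 10 TPM or more in every sample there were 7795 genes, at 100 TPM 1841 genes and at 1000 TPM 103 genes. The 100 highest genes of a sample held 24.1%, 25.3% and 24.2% of all TPM (24.6% ± 0.648, SD, n = 3), and 90 genes were among the 100 highest of all 3 samples. All 37 genes of the mitochondrial chromosome had 0 counts in every sample, although their transcripts are normally abundant. What alignment, filtering and counting did to these reads was not tested, and their level cannot be read from the counts. Processed pseudogenes held 4.91% ± 0.115 of TPM (SD, n = 3), and 1052 of them were at 1 TPM or more in every sample.

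The most abundant transcripts included those of antigen presentation, the cytoskeleton and neutrophil granules. Outside these groups, Ubb (7020 ± 360 TPM, SD, n = 3) and Gpx1 (5607 ± 253 TPM) ranked 3 and 6 by mean TPM. B2m, the light chain of MHC class I, was at 14955, 16313 and 13254 TPM, and Actb, a cytoplasmic actin, was at 10670, 12994 and 12576 TPM. The heavy chain genes H2-D1 (3712 ± 242 TPM, SD, n = 3) and H2-K1 (3510 ± 131 TPM) were in the same leading group. S100a8 and S100a9, the subunits of calprotectin, a neutrophil protein, ranked 4 and 7 by mean TPM.

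S100a8 was at 6950, 5053 and 7666 TPM and S100a9 at 5185, 3996 and 6571 TPM. Ngp, a neutrophil granule protein, was at 5915, 3856 and 5810 TPM, and Camp, an antimicrobial peptide of secondary granules, was at 3065, 2220 and 2911 TPM. All of these were lowest in WT180. Mpo, the myeloperoxidase of primary granules, was at 3689, 4138 and 1720 TPM and lowest in WT207. Ifitm3, an interferon-induced membrane protein that restricts viruses, was at 5288, 8772 and 3453 TPM, a different order again. Ribosomal protein genes were represented by Rplp0, Rpl13, Rpl32 and Rpl36, and 82 of 85 cytosolic ribosomal protein genes were at 1 TPM or more, with 7.11% ± 0.403 of TPM (SD, n = 3). Stmn1, a microtubule regulator of dividing cells, was at 3889 ± 68.0 TPM (SD, n = 3), and Tmsb4x, an actin-binding peptide, at 3917 ± 61.6 TPM. Igkc, the constant part of the kappa light chain, was the only immunoglobulin gene among the 25 highest. Of the 25 genes, 19 were among the 25 highest of each sample, and 13 were also among the 25 highest by CPM, which does not correct for gene length. Reads that fit several places were left out of the counts, so levels of genes with many near-identical copies are uncertain and may be read low. Gapdh, a glycolytic enzyme with many processed pseudogenes, was at 7.28, 8.04 and 14.4 TPM. How far lost reads account for this level was not tested. Gm15427, a processed pseudogene, was at 2692 ± 112 TPM (SD, n = 3).

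**Figure D1:**
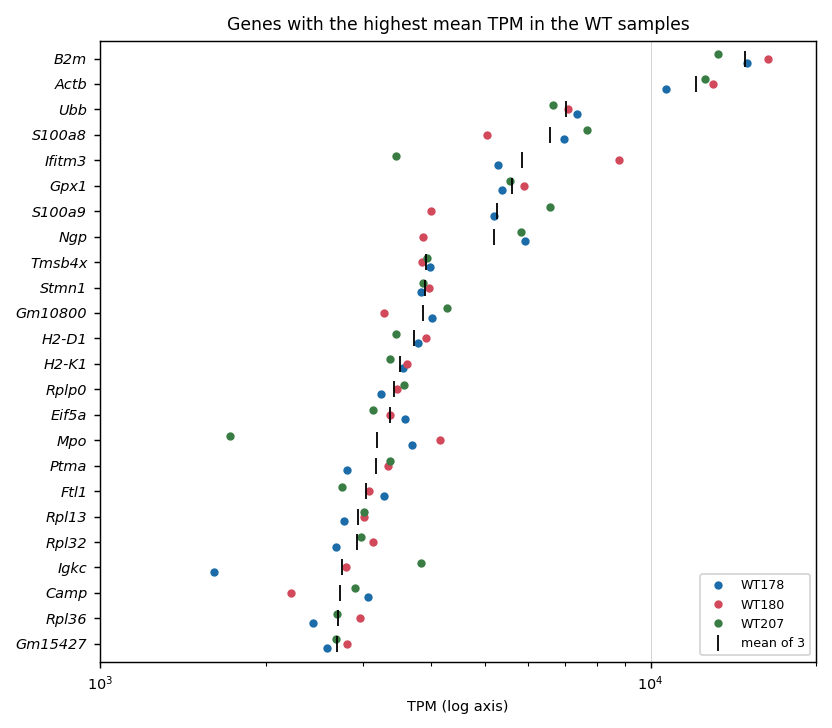
TPM of 24 of the 25 genes with the highest mean over the WT samples, on a log axis, with 1 point per sample and a bar at the mean of 3. B2m and Actb lead in every sample, and Ifitm3, Mpo and Igkc have the widest spread among the samples.

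Genes of the surface proteins by which HSCs are sorted were all detected. Cd48 and Flt3 were high, although the study's definition of long-term HSCs excludes cells with their proteins. All 14 genes of proteins found on HSCs or early progenitors were at 1 TPM or more in every sample, with a median of 95.3 TPM. Ly6a, which encodes Sca-1, was at 594, 1134 and 414 TPM. Cd34, a sialomucin of progenitors, was at 533, 427 and 463 TPM, and Kit, the receptor for stem cell factor, at 72.7, 70.7 and 85.0 TPM. Ly6a varied most, and its WT180 value lay above both others.

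Procr, the protein C receptor that marks the most primitive HSCs, was at 56.6, 50.01 and 81.7 TPM, and Esam, an adhesion molecule of HSCs and endothelium, at 74.1, 63.5 and 94.8 TPM. Both genes were lowest in WT180. Slamf1, which encodes CD150, the marker that the long-term gate requires, was far lower, at 4.69, 3.52 and 4.08 TPM. Thy1 was the lowest of the list at 1.34, 1.77 and 2.501 TPM.

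Cd48, whose protein the long-term gate excludes, was at 694, 745 and 580 TPM (673 ± 84.5, SD, n = 3). By mean it lay above every gene of the first list except Ly6a. Flt3, which encodes Flk2 and is likewise excluded, was at 140, 168 and 169 TPM (159 ± 16.5 TPM). Its range lay above that of Kit. Cd48 and Slamf1 lie in the SLAM gene cluster of chromosome 1 (171682009-171705258 and 171767127-171801184, mm10), and their ranges were far apart. Fcgr3, an Fc receptor of myeloid progenitors, was at 42.7 ± 1.17 TPM, and Fcgr2b, another, at 12.99 ± 2.64 TPM (SD, n = 3). Il7r, the interleukin 7 receptor of lymphoid progenitors, was at 1.53, 3.28 and 2.65 TPM. The mRNA of Cd48 and Flt3 was thus high for a population gated to lack these proteins. The labels do not say that this gate was used, and the surface proteins themselves were not measured in these files.

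Of 10 genes of the lineage cocktail, 4 were at 1 TPM or more in every sample and 4 were below it in every sample. Ly6c2 (131, 236 and 110 TPM) and Ly6g (24.2, 17.2 and 28.8 TPM), which encode antigens seen by the Gr1 antibody, were the highest. Itgam, which encodes CD11b, was at 0.910, 1.28 and 1.24 TPM. The T cell gene Cd3e had 16 counts in all samples together.

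**Figure D2:**
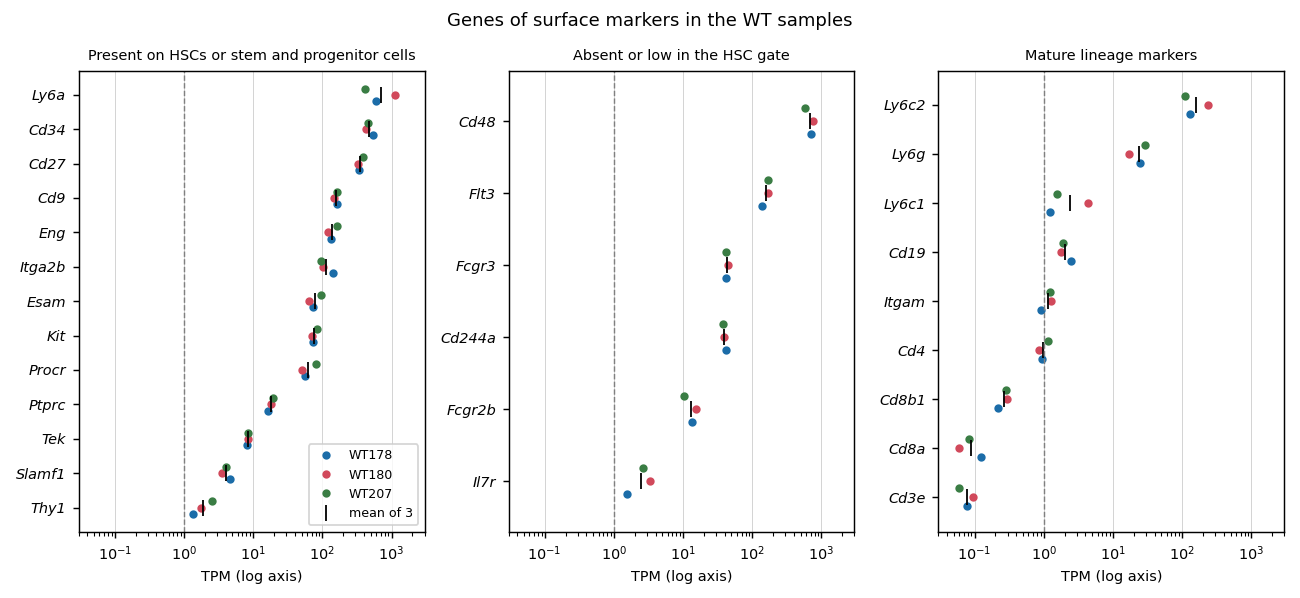
TPM on a log axis for genes of surface markers, in 3 panels for proteins present on HSCs or early progenitors, absent or low in the HSC gate, and on mature lineages. Points are the 3 WT samples, bars are their means and the dashed line is 1 TPM: Cd48 and Flt3 lie above Slamf1 in every sample.

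All 7 heptad factors were at 1 TPM or more in every sample. Lmo2, a bridging protein of the complex, was at 1004, 1118 and 1186 TPM and led at 1103 ± 92.0 TPM (SD, n = 3). Lyl1 followed at 383, 361 and 418 TPM, and Gata2, a zinc finger factor that HSCs need, at 151, 141 and 148 TPM. The ranges of Lmo2, Lyl1, Gata2, Fli1 and Erg did not overlap, so their order held in every sample.

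Fli1 was at 82.1 ± 9.79 TPM and Erg at 32.2 ± 9.65 TPM (SD, n = 3). Runx1 (22.8 ± 0.830 TPM) and Tal1 (19.5 ± 3.10 TPM) were lowest, and their ranges overlapped. Of 24 regulators linked to long-term HSCs, 23 were at 1 TPM or more in every sample, with a median of 7.49 TPM. The highest were Pdzk1ip1, a membrane adaptor (181, 166 and 219 TPM), and Gfi1b, a repressor that restrains HSC expansion (205, 138 and 159 TPM). Meis1, a partner of HOX proteins, was at 66.6 ± 9.17 TPM and Hoxa9 at 37.9 ± 3.96 TPM (SD, n = 3).

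The regulators most restricted to primitive HSCs were low. Hlf was at 14.2, 13.99 and 21.5 TPM, Prdm16 at 4.87, 3.99 and 8.96 TPM, and Mecom at 3.98, 4.33 and 6.19 TPM. Mllt3, which sustains HSC self-renewal, was at 4.74, 5.12 and 9.15 TPM. All of these were highest in WT207. Fgd5, used as a reporter locus for HSCs, was at 1.83, 1.70 and 3.40 TPM, and Hoxb5, another such locus, at 2.23, 2.33 and 2.34 TPM. Sox17, a factor of fetal HSCs, had 10 counts over all samples.

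Factors of the myeloid and erythroid lineages were higher than most of these regulators. Nfe2, a factor of megakaryocytes and red cells, was at 616, 593 and 588 TPM (599 ± 14.8, SD, n = 3), and Spi1, the master factor PU.1, at 462, 481 and 389 TPM. Irf8, a factor of monocytes and dendritic cells, was at 96.8, 127 and 40.5 TPM, and Gata1, the erythroid factor, at 68.2, 63.5 and 36.6 TPM, both lowest in WT207. Cebpe, a factor of granule formation in neutrophils, was at 103, 62.3 and 87.4 TPM. Factors with roles in lymphoid cells ranged widely. Tcf3, a partner of many factors, was at 140, 130 and 142 TPM, Ikzf1, which primes lymphoid genes, at 61.7, 73.7 and 65.6 TPM, and Gata3, a T cell factor, at 18.9, 19.5 and 25.9 TPM. Foxo1 (6.87, 6.02 and 8.93 TPM) and Tcf7 (2.52, 1.501 and 1.88 TPM) were lower. The factors of B cell and T cell commitment were lowest: Pax5 had 29 counts over all samples, Ebf1 172, and Bcl11b was at 0.401 ± 0.117 TPM (SD, n = 3).

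**Figure D3:**
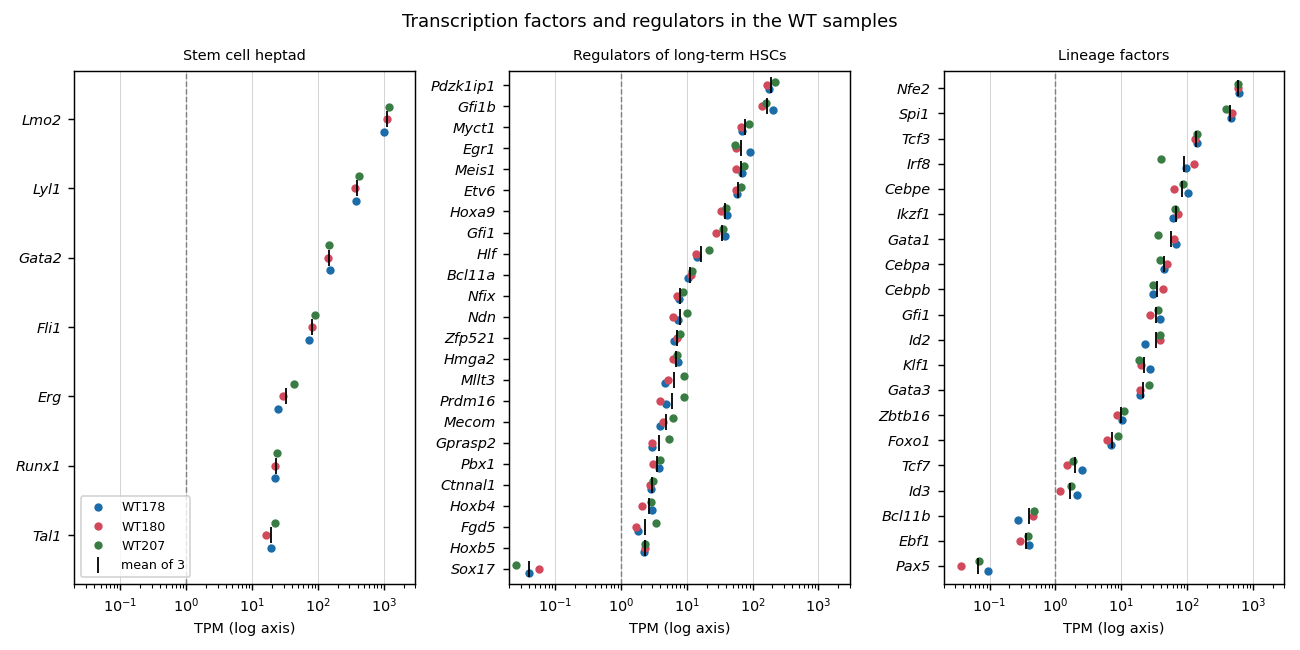
TPM on a log axis for the stem cell heptad, regulators of long-term HSCs and lineage factors, with 1 point per WT sample, a bar at the mean of 3 and a dashed line at 1 TPM. Lmo2, Nfe2 and Spi1 lie above 100 TPM in every sample, while Sox17, Bcl11b, Ebf1 and Pax5 lie below 1 TPM.

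Genes that mark other cell types were highest in sum for granule-bearing myeloid cells and plasma cells and lowest for nerve, muscle and fat. Of 249 such markers, 138 were at 1 TPM or more in every sample and 89 were below it in every sample. In a bulk sample, fewer cells of a type and less RNA per cell cannot be told apart, and early progenitors are known to transcribe several of these genes themselves. The 20 genes of secondary granules and neutrophils summed to 26280, 18937 and 28633 TPM, and 18 of them were at 1 TPM or more in every sample. The 14 genes of primary granules summed to 14824, 17694 and 10407 TPM, and all 14 were at 1 TPM or more.

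Among primary granule genes, Plac8 (2442, 3359 and 1452 TPM), Ctsg, the protease cathepsin G (1924, 2741 and 1004 TPM), and Elane, neutrophil elastase (1195, 1490 and 1199 TPM), were other leading members. Lyz2, the myeloid lysozyme, was at 2694, 2050 and 2851 TPM, and Ltf, the iron-binding lactoferrin of secondary granules, at 529, 316 and 574 TPM. Genes of the last steps of neutrophil maturation were lower: Mmp9, a gelatinase, was at 19.6, 11.7 and 26.3 TPM and Cxcr2, a chemokine receptor, at 5.13, 5.23 and 7.37 TPM. Monocyte and macrophage genes were mostly low, with a median of 4.79 TPM over 18 genes. Ms4a6c led them at 192, 338 and 69.8 TPM, followed by Cd68, a lysosomal protein, at 119, 115 and 90.6 TPM.

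The 18 plasma cell genes summed to 3184, 4432 and 5777 TPM, and most of this was immunoglobulin constant genes. Igkc was at 1613, 2802 and 3825 TPM and Ighm, the mu heavy chain, at 814, 946 and 1121 TPM. Jchain, which joins IgM and IgA, was at 37.1, 95.8 and 105 TPM. The regulators of plasma cells were near 0, with Prdm1 at 0.284 ± 0.0401 TPM and Irf4 at 0.170 ± 0.0156 TPM (SD, n = 3). Xbp1, which also serves the unfolded protein response in other cells, was at 267, 195 and 224 TPM. Immunoglobulin variable, diversity and joining segments held 0.263%, 0.350% and 0.499% of TPM.

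Eosinophil, basophil and mast cell genes were led by Prg2, the major basic protein of eosinophils (622, 292 and 341 TPM), Cpa3, a mast cell protease (360, 331 and 187 TPM), and Mcpt8, a basophil protease (167, 219 and 135 TPM). In the megakaryocyte list Pf4, platelet factor 4, was at 286, 288 and 189 TPM, while Vwf was at 1.41 ± 0.0957 TPM (SD, n = 3). In the erythroid list Car2, carbonic anhydrase, was at 1787, 1544 and 1916 TPM. The globin genes were far lower, with Hba-a1 at 19.01, 34.4 and 74.4 TPM and its near-identical copy Hba-a2 at 3.43, 8.59 and 22.3 TPM, and reads shared by the copies were not counted. B cell genes split in the same way: Dntt (199, 262 and 264 TPM), which lymphoid-primed progenitors express, and Cd79b (190, 199 and 185 TPM) were high, and 9 of 18 were below 1 TPM in every sample.

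Of 23 markers of T, NK and innate lymphoid cells, 12 were at 1 TPM or more in every sample, with sums of 2219.7, 2206 and 1926 TPM. Nearly all of this was Nkg7 (2127, 2098 and 1811 TPM), a granule protein that the primary granule list also holds, followed by Lck, a kinase of T cell signalling (38.4, 44.1 and 49.6 TPM), while the T cell receptor partners Cd3d, Cd3e and Cd3g were below 1 TPM.

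None of 16 nerve, muscle and fat markers and 2 of 12 bone and cartilage markers reached 1 TPM in every sample. Of 16 endothelial markers, 10 did, led by genes that HSCs share such as Eng and Esam, while Cdh5, the endothelial cadherin, had 20 counts over all samples. Of 20 stromal markers, 5 did, led by Apoe (813, 724 and 622 TPM), which macrophages and progenitors also express, while Lepr, the receptor that marks marrow stroma, had 40 counts. Krt18, a keratin, was at 208, 190 and 248 TPM although the other epithelial genes were low. Y-linked Eif2s3y (56.7 ± 4.05 TPM, SD, n = 3) and Ddx3y (21.1 ± 1.19 TPM) were present in every sample, and Xist, the RNA of the inactive X, had 18 counts in all.

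**Figure D4:**
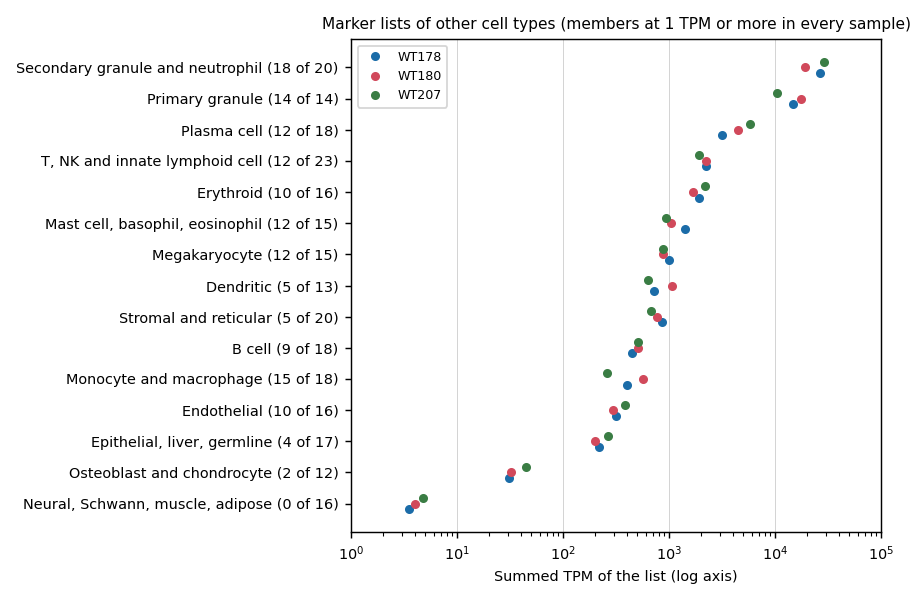
Summed TPM of each marker list of another cell type, on a log axis, with 1 point per WT sample and, in brackets, the members at 1 TPM or more in every sample. Secondary granule and primary granule lists lie at 10407 TPM or more, the plasma cell list between 3184 and 5777 TPM, and nerve, muscle and fat markers at 4.79 TPM or less.

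Genes of the cell cycle were expressed throughout. All 30 mitosis genes and all 30 replication genes were at 1 TPM or more in every sample, with medians of 60.02 and 102 TPM. Ccnb2, a mitotic cyclin, was at 353, 372 and 341 TPM, and Mcm6, a subunit of the replicative helicase, at 532, 414 and 477 TPM. Among D and E cyclins and their kinases, Cdk4 led at 642, 668 and 647 TPM, followed by Cdk6 at 282, 226 and 205 TPM. Ccnd2 (151 ± 19.9 TPM, SD, n = 3) and Ccnd3 (111 ± 3.03 TPM) lay above Ccnd1 (22.3 ± 6.05 TPM). Myc was at 695, 614 and 548 TPM and Mycn at 77.7, 47.0 and 65.7 TPM.

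Inhibitors of the cycle were led by Cdkn2d (177.7 ± 7.92 TPM, SD, n = 3) and Cdkn2c (47.8, 46.1 and 44.8 TPM). Cdkn1c, which keeps HSCs quiescent, was at 10.7, 10.1 and 15.5 TPM. Cdkn2a, a senescence gene, had 2 counts over all samples and Cdkn2b had 3. In the BCL2 family the death effector Bax was highest at 146 ± 7.94 TPM (SD, n = 3), ahead of Bid and Bad. The survival genes Bcl2 (40.1, 38.6 and 31.1 TPM) and Bcl2l1 (39.4, 34.7 and 33.5 TPM) overlapped in range, and Mcl1, another, was at 26.2 ± 6.63 TPM (SD, n = 3).

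Receptors for signals of the marrow niche spanned 3 orders of magnitude, and 31 of 34 were at 1 TPM or more in every sample. Among the highest were Ifngr1, the interferon gamma receptor (214, 209.5 and 196 TPM), Flt3, and Csf3r, the G-CSF receptor (127, 112 and 136 TPM). Both chains of the type I interferon receptor were present, Ifnar2 at 91.2 ± 6.55 TPM and Ifnar1 at 28.1 ± 2.84 TPM (SD, n = 3). Cxcr4, the receptor for the retention signal CXCL12, was at 7.06, 7.34 and 10.2 TPM. Jak2, a kinase of cytokine receptors, was the lowest of the JAK genes, at 8.73, 9.85 and 11.6 TPM.

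In the HOX clusters, transcripts came mainly from HoxA. Hoxa7 (51.6, 49.95 and 49.8 TPM) and Hoxa9 led, followed by Hoxa10 (11.6, 10.4 and 15.2 TPM), and 5 of 11 HoxA genes were at 1 TPM or more in every sample. Of 10 HoxB genes 2 were, Hoxb4 (3.02, 2.13 and 2.87 TPM) and Hoxb5. All 9 HoxC and all 9 HoxD genes were below 1 TPM in every sample. Hoxa13, Hoxc12 and 3 HoxD genes had 0 of 134511883 counts, which with a floor of 3 counts allows up to 0.0223 CPM.

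Among YTH readers of N6-methyladenosine, Ythdf2, which directs mRNA decay, was highest at 219, 193 and 196 TPM. Ythdf1 followed at 58.0, 55.0 and 69.0 TPM. Ythdc1, the gene targeted elsewhere in the study and intact here, was at 14.7, 13.99 and 19.3 TPM, a range that overlapped that of Ythdf3 (17.8, 14.1 and 16.4 TPM), and Ythdc2 was lowest at 5.41 ± 0.127 TPM (SD, n = 3). Of the m6A writers, Mettl3 (24.3, 19.8 and 23.5 TPM) lay above its partner Mettl14 (13.6, 10.9 and 13.8 TPM). Igf2bp1, Igf2bp3, Lin28a and Lin28b, which mark fetal cells, were below 1 TPM in every sample. Among DNA methyltransferases Dnmt3b (61.5 ± 8.19 TPM, SD, n = 3) lay above Dnmt3a (14.02 ± 1.84 TPM), and Tet2 was at 3.15 ± 0.185 TPM.

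Differences between the 3 samples were tested over their 6 libraries with edgeR's quasi-likelihood F test, with Benjamini-Hochberg adjustment. Of 16379 genes tested, 1182 (7.22%) had an adjusted p under 0.05, and 456 of these differed over 2-fold between the highest and the lowest sample. Called genes were highest in WT178 for 1.84% of genes tested, in WT180 for 2.78% and in WT207 for 2.59%, and lowest in WT178 for 1.92%, in WT180 for 2.52% and in WT207 for 2.78%. Backgrounds given below for a sample are these shares. They stand beside all tested members of a list, not beside its called members. Of the 1182 called genes, 302 were highest in WT178, 456 in WT180 and 424 in WT207. The lowest sample was WT178 for 315, WT180 for 412 and WT207 for 455. With the digit of the library (1 or 2) as a block, 3305 genes (20.2%) were called, and all 1182 were among them. Without library WT178_1 734 genes were called and without WT178_2 714. The titles give the libraries of a number a shared number and do not say whether they come from the same cells. The test thus compares these samples and not mice. Ratios between the samples are from TMM-scaled CPM, and their relative size does not depend on gene length.

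The interferon response had the highest share of called members among the gene lists, 83.7%. Of 43 interferon-stimulated genes, 36 were called, and all 36 were highest in WT180 (background 2.78%) and 35 were lowest in WT207 (background 2.78%). The list summed to 15625, 22741 and 12229 TPM. Its median ratio of the highest to the lowest sample was 2.27, against 1.25 for all genes tested and 2.53 for the plasma cell list. With other settings 35 to 37 of its members were called, and with 1 library left out 33 to 36.

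Ifit3, an antiviral protein, was at 23.3, 115 and 5.83 TPM, a 21.2-fold span (adjusted p = 2.8e-09, edgeR). Irf7, the factor that amplifies interferon production, was at 107, 289 and 32.7 TPM, a 9.49-fold span (adjusted p = 1.9e-09, edgeR). Ifi27l2a was at 357, 958 and 86.9 TPM and Mx1, an antiviral GTPase, at 3.86, 11.7 and 1.17 TPM. In each of these genes the samples lay in the same order, with WT180 highest and WT207 lowest. Isg15, a ubiquitin-like modifier, was at 94.2, 259 and 48.3 TPM, Ifit1 at 75.2, 147 and 25.3 TPM and Rsad2, the enzyme viperin, at 14.4, 48.6 and 10.8 TPM. The log2 difference of WT180 from WT178 was 2.33 ± 0.128 for Ifit3 and 1.47 ± 0.0950 for Irf7 (standard error). The log2 difference of WT207 from WT178 was -2.07 ± 0.169 for Ifit3 and -1.78 ± 0.0995 for Irf7.

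Ly6a belongs to the same set and spanned 2.94-fold (adjusted p = 5.7e-07, edgeR), so the mRNA of a sorting marker moved with the list. The 7 members not called were Psmb9, Irf1, Gbp2, Gbp7, Ifitm1, Ifitm2 and Tlr3. Genes outside the list had the same order: Ifi213, Ms4a4c, Apol9b, Ifi206 and Ifi209, 5 of the 15 called genes with the largest span at 10 CPM or more, were all highest in WT180 and lowest in WT207, with spans of 7.18-fold to 15-fold. In the same samples the neutrophil list was lowest in WT180 and the plasma cell list lowest in WT178, and their part in the interferon differences was not tested.

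Promoter sequences are shown for 4 interferon genes, because they carry a letter pattern that was frequent among genes highest in WT180. They are the called members of the list with the largest spans among those with a match before the start. The pattern is GAAANNGAAA on either strand, the core of the element that interferon-activated STAT and IRF factors are known to bind, and overlapping matches were kept. Sequences are from RefSeq on GRCm38.p6, read 5′ to 3′ on the strand of the gene, from 20 bases before the first match to the base before the transcription start, with matches in capitals (TTTCNNTTTC is the same pattern on the other strand). The sequences lie at chr19:34583353-34583528 on the plus strand for Ifit3, chr19:34640765-34640888 on the plus strand for Ifit1, chr4:156200819-156200916 on the minus strand for Isg15 and chr12:26456453-26456592 on the minus strand for Rsad2.
Ifit3: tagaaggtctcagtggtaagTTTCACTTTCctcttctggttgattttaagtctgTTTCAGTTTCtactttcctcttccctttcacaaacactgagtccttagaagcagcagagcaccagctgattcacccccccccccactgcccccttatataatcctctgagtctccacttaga
Ifit1: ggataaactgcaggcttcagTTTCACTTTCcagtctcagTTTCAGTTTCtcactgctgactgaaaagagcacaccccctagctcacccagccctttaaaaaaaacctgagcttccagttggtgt
Isg15: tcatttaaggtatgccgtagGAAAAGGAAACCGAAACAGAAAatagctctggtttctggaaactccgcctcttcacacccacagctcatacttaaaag
Rsad2: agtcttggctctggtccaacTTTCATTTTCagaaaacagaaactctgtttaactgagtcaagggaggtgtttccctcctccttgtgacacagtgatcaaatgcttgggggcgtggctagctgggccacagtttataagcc
Isg15 holds 3 overlapping matches, Ifit3 and Ifit1 hold 2 and Rsad2 holds 1. Ifit3 and Ifit1 share the letters of their matches.

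Over all 27025 genes with a RefSeq promoter window, which covers 250 bases before and 50 after the start, 3.99% held the pattern. Of the 308 genes with a window that were called and highest in WT180, 66 held it (21.4%). Of the 201 called and highest in WT178 it was 2.99%, and of the 280 called and highest in WT207 it was 2.5%. The pattern was thus more frequent in the windows of genes highest in WT180 than in those of the other called genes. Of the 33 interferon-list genes with a window, 18 held it (54.5%). The pattern was chosen after the differences were seen, and a match describes letters and not binding.

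Granule genes fell into separate patterns. Of 19 tested genes of secondary granules and neutrophils, 13 were called, all 13 were lowest in WT180 (background 2.52%) and 11 were highest in WT207 (background 2.59%). S100a8 spanned 1.41-fold, Ngp 1.502-fold and Cd177, a neutrophil surface protein, 2.03-fold (adjusted p = 0.015, 0.0020 and 2.0e-04, edgeR). Of 14 primary granule genes, 9 were called, and 8 of these were highest in WT180 (background 2.78%) and lowest in WT207 (background 2.78%). Mpo spanned 2.58-fold and Ctsg 2.93-fold (adjusted p = 5.5e-06 and 2.8e-07, edgeR). The called member of that list that went the other way was Cebpe, a transcription factor and not a granule protein, lowest in WT180. Of 18 monocyte and macrophage genes 8 were called (background 7.22%), of which 5 were highest in WT180, 2 in WT207 and 1 in WT178. With the library digit as a block 13 were called (background 20.2%), 6 of them highest in WT180 and 6 in WT207. Ms4a6c spanned 5.19-fold, Ly86 5.48-fold and Csf1r, the receptor for M-CSF, 3.32-fold, all highest in WT180 and lowest in WT207, as was Irf8 with 3.38-fold. The macrophage genes C1qc, a complement subunit (1.94-fold), and Slc40a1, the iron exporter (2.17-fold), were highest in WT207, and Cd68 (1.38-fold) in WT178.

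Chaperone genes were lowest in WT180. Of 27 genes of chaperones and the unfolded protein response, 17 were called and all 17 were lowest in WT180 (background 2.52%). With library WT178_1 left out 11 were called, and with WT178_2 left out 10. Hspa1a, the inducible HSP70, was at 12.6, 1.18 and 33.1 TPM, a 26.2-fold span (adjusted p = 1.1e-08, edgeR), and its neighbour and close copy Hspa1b was at 4.15, 0.487 and 12.04 TPM. Hspa8, the constitutive member, was at 2906, 1750 and 3168 TPM, a 1.69-fold span (adjusted p = 4.1e-04, edgeR). Hspa5, the HSP70 of the endoplasmic reticulum, was at 923, 479 and 673 TPM. The letters GAANNTTCNNGAA, the repeat to which heat shock factor binds, were sought on either strand. They were found in 3 of 22 chaperone-list genes with a promoter window (13.6%), and in 0.662% of all 27025 genes with a window. Of the 278 genes with a window that were called and lowest in WT180, 4 held them (1.44%). Of the 201 called and highest in WT178 it was 1.49%.

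Immediate early genes, which respond fast to many stimuli, were highest in WT178. Of 20 tested, 8 were called and all 8 were highest in WT178 (background 1.84%). Fos was at 1078, 642 and 467 TPM (2.42-fold, adjusted p = 4.0e-06, edgeR) and Jun at 989, 608 and 654 TPM (1.59-fold, adjusted p = 6.8e-04, edgeR). Eosinophil genes were also highest in WT178. Epx, eosinophil peroxidase, was at 47.6, 15.2 and 18.6 TPM (3.06-fold, adjusted p = 4.3e-06, edgeR), Ear1 at 46.0, 14.2 and 24.9 TPM, and Prg3 at 43.2, 17.5 and 16.4 TPM. Of 14 tested genes of mast cells, basophils and eosinophils, 8 were called and 6 of these were highest in WT178 (background 1.84%).

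Among HSC regulators most called members were highest in WT207. Of 23 tested long-term regulators, 8 were called (background 7.22%) and 6 of these were highest in WT207 (background 2.59%). With the library digit as a block 13 were called (background 20.2%). Without library WT178_1 5 were called, without WT178_2 4 and without WT207_2 4. Prdm16 spanned 2.09-fold and Mllt3 1.83-fold (adjusted p = 4.4e-04 and 0.0010, edgeR). Fgd5 spanned 1.86-fold (adjusted p = 0.020, edgeR). Of the 14 genes of surface proteins on HSCs or early progenitors, 5 were called (background 7.22%). Of these, 3 were highest in WT207, Procr and Esam among them, 1 in WT178 and 1 in WT180, and 2 were lowest in WT207. Gata1 was lowest in WT207 as well (1.95-fold, adjusted p = 5.8e-04, edgeR). Of the 7 heptad factors 0 were called by edgeR (background 7.22%) and 1 with the block (background 20.2%). Among them 3 had an unadjusted p under 0.05 and 1 was called by DESeq2. WT207 thus had the highest levels of Prdm16, Mllt3 and Fgd5 and the lowest of Mpo, Ctsg and the interferon list.

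Immunoglobulin genes were in part particular to a sample. Ighg1, a gamma heavy chain, was at 0, 58.8 and 0.352 TPM, and Ighg2c at 29.8, 0.206 and 25.4 TPM. Iglc3, a lambda constant gene, was at 3.51, 63.5 and 9.84 TPM, and Igha, the IgA heavy chain, at 46.3, 115 and 27.6 TPM. WT180 was the highest sample for Ighg1, Iglc3 and Igha and the lowest for Ighg2c. Igkv6-32, a kappa variable segment, was at 0.521, 327 and 0.666 TPM, and Igkv12-89 at 108, 0.323 and 269 TPM. Of 68 segments with a mean of 10 TPM or more, 24 had over 80% of their summed TPM from 1 sample, and reads shared by similar segments were not counted. A segment can pass this mean through 1 sample alone, and the same share over all genes was not computed. By a looser measure, 2.91% of all genes with a mean of 10 to 100 TPM differed over 2-fold between the samples. Each B-lineage clone is known to use 1 heavy and 1 light chain rearrangement. Of 17 tested plasma cell genes 11 were called (background 7.22%), of which 4 were highest in WT178, 3 in WT180 and 4 in WT207.

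Few or no members were called in several lists of housekeeping programmes, where 7.22% of all genes tested were called, and 20.2% with the library digit as a block. Of 30 mitosis genes, 0 were called by edgeR, 8 had an unadjusted p under 0.05, 2 were called by DESeq2 and 7 with the library digit as a block. Of 30 replication genes 1 was called, Cdc6, which loads the helicase at origins (1.40-fold, adjusted p = 0.029, edgeR), and 7 were with the block. Of 37 tested genes of oxidative phosphorylation 0 were called by edgeR and 0 by DESeq2, 5 had an unadjusted p under 0.05 and 6 were called with the block. Called or not, 26 of the 37 were highest in WT180 and 29 lowest in WT207. Their median ratio of the highest to the lowest sample was 1.13, against 1.25 for all genes tested. Of 14 proteasome genes 0 were called by edgeR and 0 by DESeq2, 2 had an unadjusted p under 0.05 and 1 was called with the block. Here 12 of the 14 were highest in WT180 and 11 lowest in WT207, with a median ratio of 1.12. The share of all genes tested with these directions, called or not, was not computed. Over genes with a mean of 100 to 1000 TPM the median coefficient of variation between the samples was 6.15%, and over those of 1 to 10 TPM it was 18.1%. Of 1891 genes in the first range, 34 differed over 2-fold between the samples (1.80%), and of 6631 in the other, 1001 did (15.1%).

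**Figure D5:**
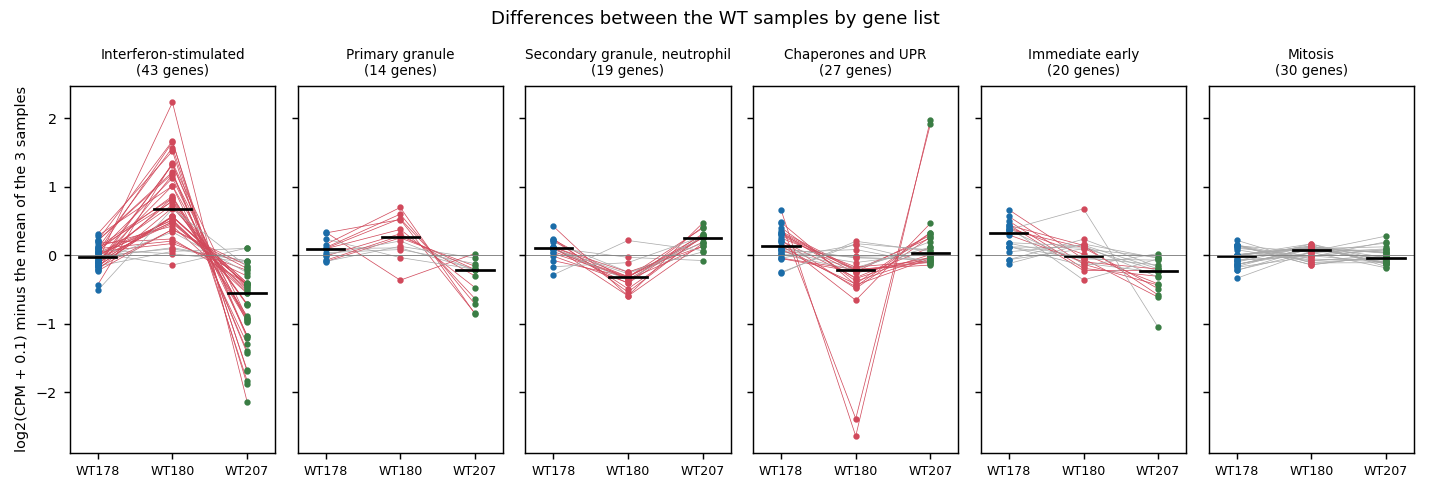
Each line is a gene of the named list and each point a WT sample, plotted as log2 of TMM-scaled CPM plus 0.1 minus the mean of the 3 samples. Red lines are genes called by edgeR, grey lines are not called and black bars are medians: interferon genes peak in WT180, secondary granule and chaperone genes dip there, and mitosis genes stay near 0.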

How the data were processed

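Expression was measured by RNA-seq of polyadenylated RNA in 12 libraries, of which the 6 wild type ones were used. The values are counts of read pairs in each gene (whole numbers), as deposited. Per the file headers and the submitters' notes, the authors counted with featureCounts 2.0.1 on GENCODE M23 exons of mm10, without strand, and reads that map to several places or overlap several genes were not counted. The paper names Hisat2 for alignment. All columns of counts matched a label (0 did not), and the knockout columns were not used.

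The counts of the 2 libraries of a sample number were summed. CPM and TPM were computed from the sums, TPM with the exon length in the deposited table, and genes under 300 bases were left out of the ranking by TPM. Names came from a table of gene identifiers (55154 of 55335 matched, and 213 that share a symbol keep their identifier), and gene types from GENCODE vM21 of the same build. Of the symbols in the gene lists, 12 did not match and were left out. Between libraries of a number the counts differed beyond sampling noise, with a chi-square statistic over genes of 6.15 to 14.2 times its degrees of freedom. Across genes, log2 TPM correlated at 0.987 to 0.990 between libraries of a number and 0.976 to 0.986 between others.

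The 3 sample numbers were compared with edgeR 4.0.16 in R 4.3.3 (robust quasi-likelihood fit in its current form, TMM scaling, filterByExpr at 10 counts per library and 15 in total, adjusted p under 0.05). The differences between libraries 1 and 2 correlated across genes at 0.338 to 0.543 between the sample numbers, so the digit pairs the libraries, although the labels do not say what it marks. DESeq2 1.42.0 was an alternative, beside other scalings, filters, lengths, thresholds and libraries or samples left out. The steps were tested on simulated data. Floors cover counting error only. Python 3.11.15 with matplotlib 3.10.9 drew the figures.

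Named genes are the 25 with the highest TPM, up to 5 of the highest of each list, all members of lists of surface markers, factors and families, and called genes with the largest ratios. The lists, the members and the promoter patterns were chosen with earlier results of these data known. A few members of the lists are not reported here by name, while counts, medians and sums cover whole lists.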

Additional observations from a re-analysis of the deposited data

How the results depend on the processing

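The number of genes that differed between the samples was 1182, and it was 3305 with the library digit as a replicate block. With 1 library left out it was 714 to 1414. The cause of these changes was not tested. RLE scaling, upper quartile scaling, edgeR's legacy option, DESeq2, no filter and a filter of 10 CPM in 2 libraries gave 849 to 1408. The share of TPM in the 100 highest genes was 24.6%, and it was 25.8% with 200 bases taken off the length, 17.6% in CPM and 23.5% without neutrophil, plasma cell and immunoglobulin genes. Leaving out a sample gave 24.2% to 24.8%. The count of genes at 1 TPM ran from 9776 at 5 TPM to 15599 at 0.5 TPM, and the markers of other cell types from 106 to 157. Of 495 named genes tested, the block changed 78 calls, all of them gained. DESeq2 lost 4 and gained 18 among those to which it gave an adjusted p. Leaving out each library in turn lost 174 calls and gained 45. These are sums over all such fits, in which a gene can count more than once. Taking 200 bases off the length moved 203 of 562 mean TPM values by over 1 SD.

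Depth limits the genes listed with under about 30 counts over the samples. With 3 samples, and no label that ties a number to a mouse, no spread between animals can be given.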

Other observations

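Libraries 1 and 2 of a sample differed in a way that recurred in all 3 samples. Of 9182 genes with a mean of 10 CPM or more, 27 were over 2-fold higher in library 1 than in library 2 in every sample, and 0 were over 2-fold lower in every sample. The genes named here were chosen after their values were seen. Alyref, an mRNA export adaptor, was at 264 and 86.7 CPM in the libraries of WT178, at 315 and 61.2 CPM in those of WT180, and at 275 and 95.25 CPM in those of WT207. Clint1, a clathrin adaptor, was at 102 and 34.4 CPM, at 138 and 35.5 CPM, and at 132 and 46.4 CPM. Csnk1g2, a casein kinase, was at 29.5 and 11.6 CPM, at 59.4 and 9.23 CPM, and at 77.7 and 13.6 CPM. None of these 3 genes was called between the samples. The labels do not say what the digit marks.

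The median level of protein coding genes at 1 TPM or more in every sample was 18.1 TPM over 337 genes of the X chromosome and 20.8 TPM over 10641 autosomal genes. Gm26917, a long noncoding RNA, was at 623, 916 and 1862 TPM and was the highest of a list of 22 abundant noncoding genes, ahead of Gas5 (351, 341 and 347 TPM) and Malat1 (274, 277 and 318 TPM). Of 67 replication-dependent histone genes, whose mRNA mostly lacks a poly(A) tail, 54 were at 1 TPM or more in every sample, with 0.485% ± 0.0578 of TPM (SD, n = 3). Nuclear genes of oxidative phosphorylation had a median of 412 TPM over 37 genes. Glycolytic genes had a median of 39.1 TPM over 23 genes, led by Ldha at 1192, 1279 and 1169 TPM. Atp5o is missing from the first of these lists and Aldoa from the second, for want of a matching symbol. Reads shared by near-identical copies of a gene, such as those of Gapdh, were not counted, and what this did to the glycolytic levels was not tested.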
